A study of Mus musculus with 12 samples.

Results

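The genes described here are 40 listed photoreceptor and phototransduction genes, of which 38 had a row with that symbol among the 13942 genes of the deposited table. They were picked by gene symbol, with earlier results of these data known. Opn1mw and Guca1b were not analysed here. Of the 38, 12 belong mainly to rods, 7 mainly to cones, and 19 are used by both cell types. The libraries came from mouse retinal pigment epithelium (RPE), the pigmented cell layer that lies against the photoreceptor outer segments. They carry the labels Sox9 cKO (conditional knockout) at postnatal day 5 (P5), wild type (WT) at P5, Sox9 cKO at E15.5, a stage before birth, and WT at E15.5, with 3 libraries in each group, all of strain C57BL/6J. The sources used here give neither the Cre line nor the deleted exons, nor how RPE was separated from its neighbours or whether replicates were separate animals. The limma p-values therefore rest on a spread between libraries, pooled over all groups, that may be technical.

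In a photoreceptor, light changes an opsin, the opsin activates the G protein transducin, and transducin releases a phosphodiesterase that breaks down cyclic GMP. Cation channels held open by cyclic GMP then close. Arrestin and calcium-sensing proteins end the response and restore cyclic GMP through guanylate cyclases. Rods and cones use separate genes for most of these steps, and the RPE supports both cell types and takes up their shed outer segment tips, but is not itself a photoreceptor. The comparison of genotypes asks which RPE genes differ without the transcription factor SOX9, and the comparison of ages asks which differ between the embryo and the newborn.

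Values are quantile-normalised gene counts, which put every library on 1 common distribution with a median of 367.4, and no value lies under a floor of 50. A gene listed at 50 may have been at any lower level, and the sequencing depth is unknown. Sox9 itself went against the P5 label. It had 2136, 2384 and 2928 in the P5 cKO-labelled libraries, against 963.7, 1499.5 and 1111 in P5 WT (log2 fold change 1.07 ± 0.17 SE, limma adjusted p = 0.0316). At E15.5 it had 1034, 990.0 and 1006 in cKO-labelled libraries and 1156, 1060.3 and 931.6 in WT (adjusted p = 1). A gene-level value can include reads from undeleted exons, so it does not check the deletion, and the genotype of a library is given below as its label. The mean log2 value of 15 RPE markers was 10.50 to 11.07 in the P5 cKO-labelled libraries and 10.53 to 11.96 in P5 WT. In each P5 cKO-labelled library 1 of the 15 was at the floor, and none was in the P5 WT libraries.

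Promoters are printed for 8 genes because the cone-rod homeobox protein CRX, the product of one of the 38 genes, is known to bind the core TAATCC in photoreceptor promoters. Each line gives the 100 bases before the RefSeq start of the gene, 5′ to 3′ on the gene's own strand, in build GRCm38.p6, with each TAATCC or its reverse complement GGATTA in capitals.
Crx, chr7:15879956-15880055, minus strand: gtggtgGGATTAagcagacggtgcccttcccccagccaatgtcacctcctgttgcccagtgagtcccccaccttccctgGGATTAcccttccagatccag
Sag, chr1:87803580-87803679, plus strand: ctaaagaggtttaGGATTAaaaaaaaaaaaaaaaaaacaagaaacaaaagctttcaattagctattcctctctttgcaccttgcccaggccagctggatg
Cngb1, chr8:95306586-95306685, minus strand: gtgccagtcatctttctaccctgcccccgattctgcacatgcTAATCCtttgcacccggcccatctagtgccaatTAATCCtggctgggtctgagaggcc
Rbp3, chr14:33953903-33954002, plus strand: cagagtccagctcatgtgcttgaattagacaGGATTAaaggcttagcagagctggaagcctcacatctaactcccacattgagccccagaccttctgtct
Rpgrip1, chr14:52110803-52110902, plus strand: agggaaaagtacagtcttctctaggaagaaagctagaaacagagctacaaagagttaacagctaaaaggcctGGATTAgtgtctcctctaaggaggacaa
Gnat2, chr3:108092966-108093065, plus strand: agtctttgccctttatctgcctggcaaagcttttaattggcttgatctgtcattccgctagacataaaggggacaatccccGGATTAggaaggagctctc
Abca4, chr3:122044360-122044459, plus strand: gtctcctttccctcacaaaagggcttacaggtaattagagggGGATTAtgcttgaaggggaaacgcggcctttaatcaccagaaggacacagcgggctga
Gucy2f, chrX:142196937-142197036, minus strand: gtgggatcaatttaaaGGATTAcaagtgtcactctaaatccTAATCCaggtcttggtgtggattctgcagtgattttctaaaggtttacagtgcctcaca
The first 5 of these genes and the cone gene Gnat2 followed the common order of P5 libraries described below. Abca4 and Gucy2f carry the same letters and did not follow that order. In GENCODE M21 on the same assembly, Crx lies at chr7:15865947-15879968 (minus strand), Sag at chr1:87803680-87845158 (plus strand), Rbp3 at chr14:33954003-33964216 (plus strand) and Abca4 at chr3:122044443-122180123 (plus strand). Rpgrip1 lies at chr14:52110704-52163546 and Gnat2 at chr3:108092789-108101432 (both plus strand). The bases printed for these 2 genes lie inside the GENCODE gene, so their matches are after its start there. RefSeq gave promoter windows for 31 of the 40 listed genes. In windows of 250 bases before to 50 after the start, 15 of these 31 genes (48.4%) held TAATCC or GGATTA, against 8.14% of 27025 genes with a window in the same table. Nrl, Nr2e3, Prph2, Pdc and Rom1 were among those without a match, while all 8 printed promoters hold one. These 5 genes without a match followed the common order too, as did 30 of the 37 tested genes (81.1%). Following that order therefore does not set genes with a match apart. The match began 94 and 21 bases before the start in Crx, 87 in Sag, 69 in Rbp3, 58 and 25 in Cngb1, 28 in Rpgrip1, 19 in Gnat2, 58 in Abca4, and 84 and 59 in Gucy2f. TGCTGAC or its reverse complement GTCAGCA, a partial site of MAF-type factors such as the rod factor NRL, was found in 2 of the 31 genes, Opn1sw and Pde6b (6.45%), against 5.28% of all genes with a window. Neither of these promoters held TAATCC or GGATTA. A match is a description of sequence, not of binding.

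At E15.5 most photoreceptor genes were at the floor of the table. Of the 37 that passed the filter for testing (a value over the floor in 3 or more of the 12 libraries), 26 lay at the floor in all 6 E15.5 libraries. Arr3, the cone arrestin, did not pass the filter, with 63.2 in P5 cKO-labelled replicate 2, 151.3 in P5 WT replicate 3 and the floor in the other 10 libraries. The genes above the floor in all 6 E15.5 libraries were 4. Gnb1, the transducin beta subunit of rods that most cells also use, lay between 5848 and 6144 in the E15.5 cKO-labelled libraries and between 5912 and 6233 in WT. Unc119, a carrier of lipid-modified transducin, lay between 924.2 and 1092 in the cKO-labelled libraries and between 958.4 and 1013 in WT. Abca4, the outer segment flippase that clears retinal conjugates, had 521.9, 432.7 and 399.5 in the cKO-labelled libraries and 435.3, 378.8 and 224.6 in WT. Tulp1, a protein of photoreceptor transport, was low, at 110.3, 118.1 and 119 in the cKO-labelled libraries and 116.3, 134.2 and 150.4 in WT. The genotypes overlapped in all 4.

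No photoreceptor gene was called between genotypes at E15.5, in either direction (0 of 37, limma adjusted p under 0.05, and 0 at an unadjusted p under 0.05). Of all 13523 genes tested, 0% were called higher and 0.00739% lower in the cKO-labelled libraries at that age, and 49 had an unadjusted p under 0.05. Of the 11 fold changes other than 0, 9 were negative and 2 positive, and all but that of Abca4 were smaller than their SE. The lowest were Crx at -0.31 ± 1.18, Tulp1 at -0.20 ± 1.05 and Prdm1 at -0.19 ± 0.68 (log2 ± SE), and the highest were Abca4 at 0.43 ± 0.27 and Unc119 at 0.03 ± 0.58, each with a limma adjusted p of 1. These SE pool the spread of all 4 groups, and most of it comes from P5.

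At P5 most of the photoreceptor genes were higher than at E15.5 under both labels. In the cKO-labelled libraries 22 of 37 rose (17.6% of all genes tested were called higher), and in WT 23 of 37 rose (15% of all genes tested). The 26 genes at the floor in all E15.5 libraries passed the filter through P5 alone and could not have been called lower. The other 11 gave no call lower either. The call was lost under at least 1 alternative for 8 of the 22 genes in the cKO-labelled libraries (Cngb1, Gnb3, Pde6b, Pde6g, Prdm1, Rp1, Tulp1 and Unc119, with limma adjusted p values of 0.051 to 0.138 where lost) and for 7 of the 23 in WT (Cngb1, Pde6b, Pde6g, Rp1, Samd7, Tulp1 and Unc119, 0.0501 to 0.11). The median log2 fold change, P5 minus E15.5, was 2.75 in the cKO-labelled libraries and 3.0 in WT, where the median of all genes tested was -0.07. Among rod genes 7 of 12 rose under each label, and among cone genes 3 of 6. Of genes used by both cell types, 12 of 19 rose in the cKO-labelled libraries and 13 of 19 in WT. For 24 of the 37 genes (64.9%) all 6 P5 libraries lay above all 6 E15.5 libraries, against 14.3% of all genes tested. The 26 genes at the floor at E15.5 could only tie with it or exceed it at P5. So neither this share nor the shares called higher are a test of the photoreceptor genes against all genes. Without P5 cKO-labelled replicate 2, the library with the highest values of that group, the count there was 14 of 37, beside 2090 of all 13523 genes. Without P5 WT replicate 3 it was 17 of 37 in WT, beside 2752 of all genes, with a median of 1.81. The SE and p-values of these fits pool the spread of all 4 groups. The median SD of the 37 genes was 0 in each E15.5 group. At P5 it was 1.74 (log2) in the cKO-labelled libraries and 2.07 in WT. So the SE is not the spread of either P5 group, and the p-values lean on E15.5 values held at the floor. In bulk libraries, more photoreceptor cells and more of these RNAs per cell cannot be told apart. The RPE markers differed with age too. At E15.5 the mean log2 value of the 15 RPE genes ran from 8.34 to 8.66 under the cKO label. Under the WT label it ran from 8.76 to 9.125. Every P5 library was higher, at 10.50 or more. Lists of ganglion cell and skeletal muscle genes, described below, overlapped between the ages under each label. The part of tissue composition in the rise with age was not tested.

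**Figure D1:**
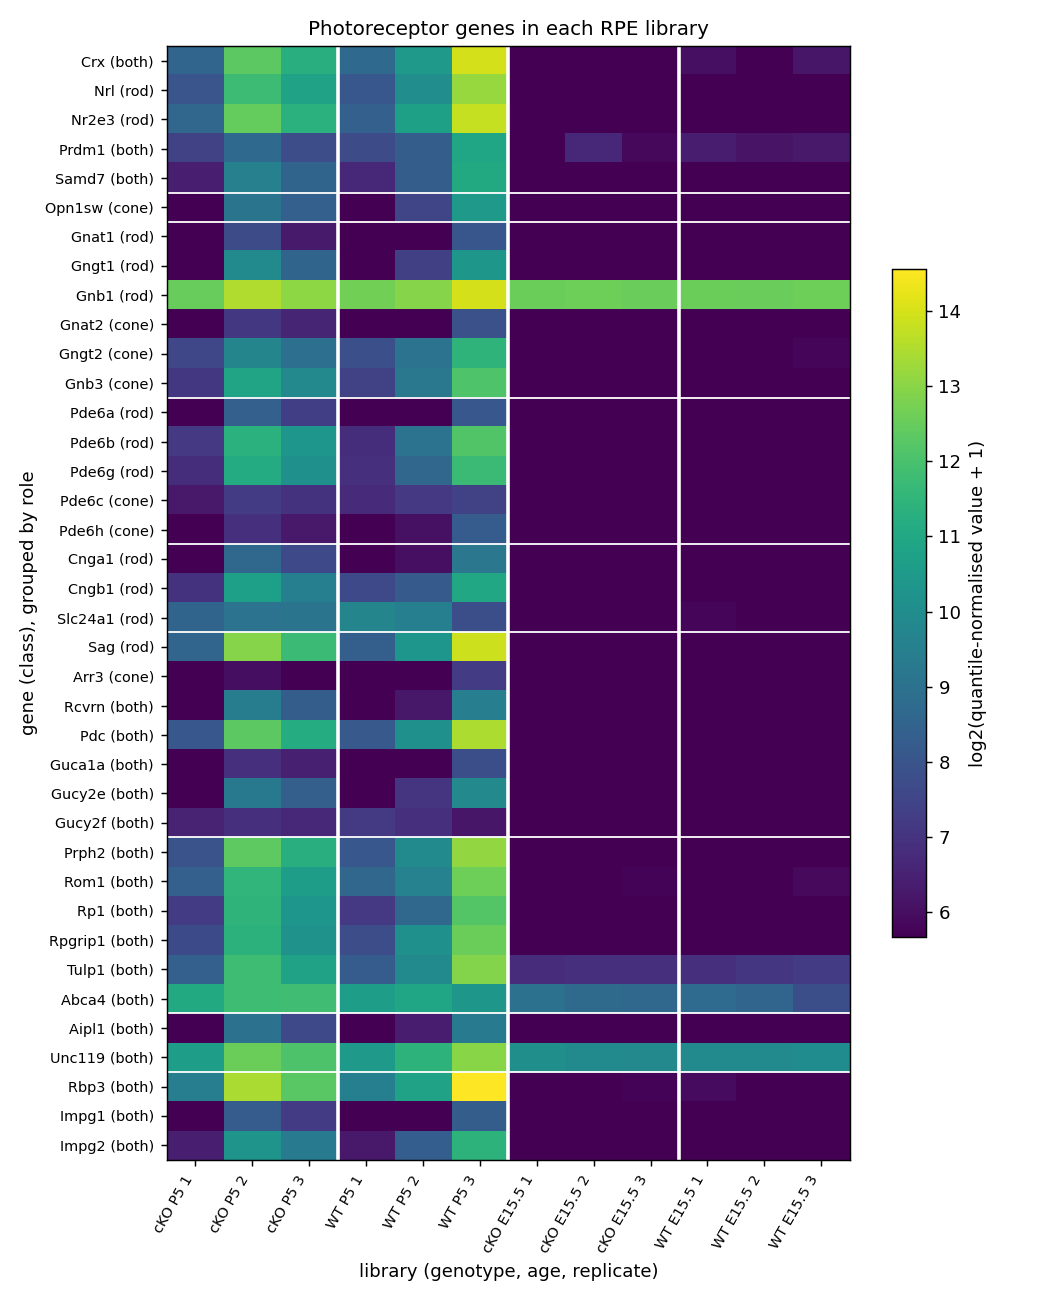
Log2(value + 1) of the 38 photoreceptor genes in the table (down, by role, with the class in brackets) in each of the 12 libraries (across: P5 cKO, P5 WT, E15.5 cKO and E15.5 WT, by label, 3 replicates each). The E15.5 columns are dark except for Gnb1, Unc119 and Abca4 and faint values of Tulp1 and a few others, and at P5 the brightest columns are WT replicate 3 and cKO replicate 2.

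Of the 5 genes that control transcription, Crx, Nrl and Nr2e3 had fold changes between the ages above the median of the 37 genes under both labels. Crx, which drives photoreceptor genes, had 382.4, 5169 and 2501 in the P5 cKO-labelled libraries and 419.2, 1420.5 and 16367 in P5 WT, against 50 to 73.6 at E15.5. Nrl, the factor that sets rod identity, had 260.4, 3437 and 1769 in P5 cKO-labelled libraries and 269.9, 1031 and 9389.5 in P5 WT, with the floor in all E15.5 libraries. Nr2e3, which represses cone genes in rods, had 388.5, 5637 and 2617 in the cKO-labelled libraries and 335.8, 1678 and 14160 in WT at P5, and the floor at E15.5. In each of the 3 genes every P5 library exceeded every E15.5 library, while the P5 libraries of each label spread over more than 1 order of magnitude. The rise, P5 minus E15.5 by limma, was 5.06 ± 1.18 (log2 ± SE, adjusted p = 0.00597) for Crx in the cKO-labelled libraries and 5.08 ± 1.18 (adjusted p = 0.00675) in WT. For Nr2e3 it was 5.13 ± 1.19 in the cKO-labelled libraries and 5.29 ± 1.19 in WT, and for Nrl 4.52 ± 1.15 in the cKO-labelled libraries and 4.76 ± 1.15 in WT. Fold changes from the floor depend on the floor, and the means of Nr2e3 at P5 were at least 57.6-fold above it in the cKO-labelled libraries and at least 107.8-fold in WT. Without cKO-labelled replicate 2 the first limit was 30.05-fold, and without WT replicate 3 the second was 20.14-fold. Prdm1, which keeps photoreceptor precursors from becoming bipolar cells, rose by 1.89 ± 0.68 in the cKO-labelled libraries (adjusted p = 0.0428) and by 2.70 ± 0.68 in WT (adjusted p = 0.00991). The cKO-labelled call of Prdm1 was lost without P5 replicate 2 or 3 or any 1 of the E15.5 libraries of that label (limma adjusted p 0.0515 to 0.138), at a pseudocount of 50 (0.0918) and with no filter (0.0529). Samd7, a rod silencing protein, rose in WT (3.0 ± 0.97, adjusted p = 0.0323) and was not called in the cKO-labelled libraries (2.49 ± 0.97, adjusted p = 0.0599), a difference between labels that was not called (adjusted p = 1).

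Of the opsins of the list, Opn1sw, the short-wave cone opsin, was analysed. It had 50, 542.4 and 339.9 in the P5 cKO-labelled libraries and 50, 182.4 and 1377 in P5 WT, with the floor in all 6 E15.5 libraries. With 1 P5 library of each label at the floor, Opn1sw was called under neither label (2.05 ± 1.07, limma adjusted p = 0.143, in the cKO-labelled libraries and 2.20 ± 1.07, adjusted p = 0.128, in WT).

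Of the 6 transducin subunits 2 rose under both labels, both of cones. Gngt2 (the gamma subunit) had 190.3, 849.6 and 481.3 in the P5 cKO-labelled libraries and 230.6, 533.9 and 2827 in P5 WT, and Gnb3 (the beta subunit, also used by ON bipolar cells) had 137.7, 1868 and 931.7 in the cKO-labelled and 168.7, 602.5 and 4400.2 in WT libraries. The lowest P5 library of each gene exceeded all its E15.5 libraries. Gngt2 rose by 3.06 ± 0.76 (adjusted p = 0.00848) in the cKO-labelled libraries and by 3.73 ± 0.76 (adjusted p = 0.00341) in WT, and Gnb3 by 3.61 ± 1.09 (adjusted p = 0.021) in the cKO-labelled libraries and 3.91 ± 1.09 (adjusted p = 0.0167) in WT. The other 4 were not called. Gngt1, the rod gamma subunit, had 50, 950.7 and 367.7 in the P5 cKO-labelled libraries and 50, 160.9 and 1335 in WT, while Gnat1, the rod alpha subunit, reached 207.3 at most in the cKO-labelled libraries and 266.3 at most in WT. Gnat2, the cone alpha subunit, reached 138.7 in the cKO-labelled libraries and 233.5 in WT. Gnb1 stayed the most even of the group, with 5787, 11458 and 8434 in the cKO-labelled libraries and 6455, 7825 and 16113 in WT, and a difference from E15.5 of 0.46 ± 0.31 (adjusted p = 0.262) in the cKO-labelled libraries and 0.63 ± 0.31 (adjusted p = 0.14) in WT.

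For the phosphodiesterase that breaks down cyclic GMP, the catalytic beta and inhibitory gamma subunits of rods rose and the alpha subunit was not called. Pde6b had 141.6, 2632 and 1293 in the P5 cKO-labelled libraries and 112.3, 535.7 and 4503 in P5 WT, and Pde6g had 112.1, 2229.9 and 1124 in the cKO-labelled and 116.2, 392.6 and 3381 in WT libraries. All E15.5 libraries were at the floor for both. Pde6b rose by 3.95 ± 1.23 in the cKO-labelled libraries (adjusted p = 0.024) and by 3.67 ± 1.23 in WT (adjusted p = 0.0367). Neither call of Pde6b held in every alternative: the cKO-labelled call was lost without P5 replicate 2 or 3 or any 1 of the E15.5 libraries of that label (limma adjusted p 0.0594 to 0.0894), and the WT call likewise (0.0725 to 0.0893), at a pseudocount of 50 (0.0615) and on the 6 WT libraries alone (0.0744). Pde6a, which pairs with Pde6b in the rod enzyme, had 50, 338 and 159.8 in the cKO-labelled libraries and 50, 50 and 273.2 in WT. Per kilobase of exon, a rough correction for gene length, the P5 mean of Pde6b was 269.7 in the cKO-labelled libraries and 341.6 in WT. That of Pde6a was 38.95 in the cKO-labelled libraries and 26.54 in WT, upper limits because they include libraries at the floor. The cone catalytic subunit Pde6c had the narrowest range of the group, with 76.8, 151.3 and 125.2 in the cKO-labelled libraries and 107.8, 139.4 and 166.6 in WT, and was called in spite of its low level (1.16 ± 0.23, adjusted p = 0.00254, in the cKO-labelled libraries and 1.42 ± 0.23, adjusted p = 0.000954, in WT). Pde6h, the cone inhibitory subunit, was not called.

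Among the rod channel subunits and the exchanger, Cngb1, the beta subunit of the cyclic GMP-gated channel, rose under both labels (3.38 ± 0.92, adjusted p = 0.0133, in the cKO-labelled libraries and 3.25 ± 0.92, adjusted p = 0.0181, in WT). Cnga1, its alpha subunit, had 50, 406.6 and 197.8 in the cKO-labelled libraries and 50, 64.1 and 583 in WT at P5 and was not called. Slc24a1, the rod sodium, calcium and potassium exchanger, showed a different order of libraries. It had 366.6, 533.6 and 540.3 in the P5 cKO-labelled libraries and 837, 729.3 and 221.7 in P5 WT, so that WT replicate 3, the highest library for most of the genes, was the lowest for this one. Its rise from E15.5 was 3.22 ± 0.40 (adjusted p = 0.000174) in the cKO-labelled libraries and 3.28 ± 0.40 (adjusted p = 0.000184) in WT.

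Of the 6 tested genes that shut off the response or feed calcium back onto it, Sag, Pdc and Gucy2f rose under both labels. Sag, the rod arrestin, had 378, 7935 and 3419 in the P5 cKO-labelled libraries and 331.4, 1309 and 15147 in P5 WT, with the floor at E15.5. Its highest P5 library exceeded its lowest 45.7-fold, more than for any other of the 37 tested genes, and it rose by 5.41 ± 1.28 in the cKO-labelled libraries (adjusted p = 0.0063) and 5.20 ± 1.28 in WT (adjusted p = 0.00891). Pdc, which binds the beta and gamma subunits of transducin, had 271.9, 5156.5 and 2329 in the cKO-labelled libraries and 280.9, 1116 and 11232 in WT, and rose by 4.86 ± 1.23 in the cKO-labelled libraries and 4.90 ± 1.23 in WT. Gucy2e, the main guanylate cyclase of mouse photoreceptors, reached 610.3 in the cKO-labelled libraries and 935.4 in WT, with 1 library of each label at the floor, and was not called. Its paralogue Gucy2f had 90.3, 116.3 and 99.2 in the cKO-labelled libraries and 143.7, 119.2 and 73.2 in WT, and was called on a small rise (1.01 ± 0.21, adjusted p = 0.00356, in the cKO-labelled libraries and 1.09 ± 0.21, adjusted p = 0.00258, in WT). Rcvrn, a calcium sensor that restrains the opsin kinase, had 50, 698.3 and 314.8 in the cKO-labelled libraries and 50, 75 and 703.8 in WT. Guca1a, a calcium sensor of the cyclases, reached 119.9 in the cKO-labelled libraries and 222.3 in WT. Neither of these sensors was called.

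All 6 genes of the outer segment and connecting cilium rose under both labels. Prph2 and Rom1, the tetraspanins that shape the disc rims, rose by 4.83 ± 1.22 and 4.47 ± 0.93 in the cKO-labelled libraries and by 4.69 ± 1.22 and 4.52 ± 0.93 in WT. Prph2 had 244.2, 5208 and 2410.2 in the P5 cKO-labelled libraries and 267.7, 955.4 and 8931.5 in P5 WT. Rp1, a microtubule protein of the axoneme, rose by 4.0 ± 1.20 in the cKO-labelled libraries and 3.65 ± 1.20 in WT, Rpgrip1, of the connecting cilium, by 4.09 ± 1.09 in the cKO-labelled libraries and 4.47 ± 1.09 in WT, and Tulp1 by 3.47 ± 1.05 in the cKO-labelled libraries and 3.29 ± 1.05 in WT. The adjusted p values of these 5 genes lay between 0.00327 and 0.021 in the cKO-labelled libraries and between 0.00358 and 0.0342 in WT. Of the chaperones, Unc119 rose (1.78 ± 0.58, adjusted p = 0.0286, in the cKO-labelled libraries and 1.70 ± 0.58, adjusted p = 0.039, in WT), and Aipl1, which folds the phosphodiesterase, was not called.

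Rbp3, the retinoid-binding protein of the matrix between photoreceptors and RPE, had the largest rise of the 37 tested genes under both labels. It had 718, 10984 and 4994 in the P5 cKO-labelled libraries and 720.2, 1774 and 24110 in P5 WT, against 50 to 60.5 at E15.5. The rise was 6.03 ± 1.18 in the cKO-labelled libraries (adjusted p = 0.00227) and 5.85 ± 1.18 in WT (adjusted p = 0.00312). Impg2, a proteoglycan of the same matrix, lay above the floor in all P5 libraries and at the floor in all E15.5 libraries, but was not called (adjusted p = 0.0591 in the cKO-labelled libraries and 0.0644 in WT), and Impg1 was at the floor in 3 of the 6 P5 libraries. Per kilobase of exon at P5, Rbp3 averaged 1051 in the cKO-labelled libraries and 1675 in WT, beside Gnb1 with 2005 in the cKO-labelled libraries and 2374 in WT, Unc119 with 1615 in the cKO-labelled libraries and 1668 in WT, and Rom1 with 1058 in the cKO-labelled libraries and 1606 in WT. The spread between libraries of each label was wider than these differences, so the order of these genes is not resolved.

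**Figure D2:**
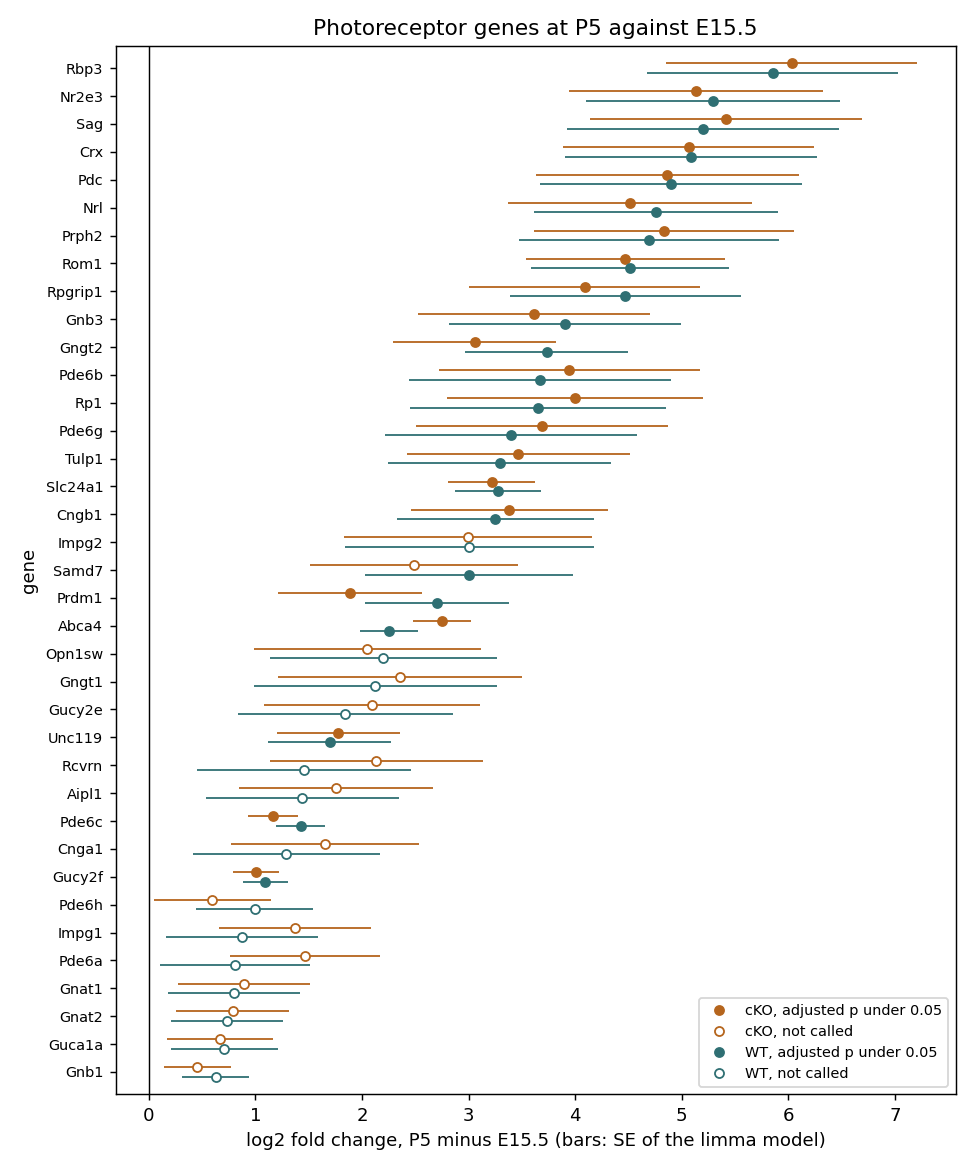
Log2 fold change between P5 and E15.5 (P5 minus E15.5) with the SE of the limma model for the 37 photoreceptor genes tested, in cKO-labelled (upper point of each pair) and WT libraries. Filled points have an adjusted p under 0.05. All points lie above 0, from Gnb1 to Rbp3, and genes at the floor in all E15.5 libraries could not lie below it.

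Between genotypes at P5, no photoreceptor gene was called. The count was 0 of 37 in either direction by limma, against 0.2% of all genes tested called higher and 0.0444% called lower in the cKO-labelled libraries. An unadjusted limma p under 0.05 was found for 1 of the 37 genes and for 1039 of all 13523 genes tested. The fold changes, cKO-labelled minus WT, were positive in 18 genes and negative in 19, with a median of -0.01 (log2). That median was not stable: it was 0.77 with library weights, 0.94 without P5 cKO-labelled replicate 1, -0.68 without cKO-labelled replicate 2, -0.16 without cKO-labelled replicate 3, -0.83 without P5 WT replicate 1, -0.24 without WT replicate 2 and 1.14 without WT replicate 3. The median SE was 0.97, against a median SE of 0.19 for all genes tested. This SE pools the P5 groups with the E15.5 groups, where most of these genes were at the floor, so for most of them it understates the P5 spread. The 3 lowest were Prdm1 at -1.0 ± 0.68 (adjusted p = 0.79), Gngt2 at -0.72 ± 0.76 (adjusted p = 0.887) and Samd7 at -0.52 ± 0.97 (adjusted p = 0.962). The 3 highest were Abca4 at 0.92 ± 0.27 (adjusted p = 0.37), Rcvrn at 0.68 ± 1.0 (adjusted p = 0.938) and Pde6a at 0.65 ± 0.70 (adjusted p = 0.888). The interaction of genotype and age was called in 0 of 37 as well (0.0518% of all genes tested were called positive and 0.00739% negative). An unadjusted limma p under 0.05 was found for 0 of the 37 and for 358 of all genes tested. With an SE of this size, differences of several fold between genotypes would not have been detectable for most of these genes.

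Abca4 was the 1 gene of the 37 with an unadjusted limma p under 0.05 at P5, beside 1039 of all 13523 genes tested. It was also the 1 gene whose labels did not overlap with the cKO-labelled libraries higher (467 of all genes tested, 3.45%). Neither count of 1 in 37 exceeds the share of all genes, so neither sets the photoreceptor genes apart. Abca4 had 2149, 3526 and 3670 in the P5 cKO-labelled libraries and 1585, 1938 and 1327 in P5 WT. The unadjusted limma p was 0.00624, and the exact permutation test of 3 libraries against 3 gave 0.1, the smallest p it can give. Over the alternatives run, the adjusted p lay between 0.0804 and 1. Abca4 rose from E15.5 under both labels (2.75 ± 0.27, adjusted p = 4.3e-05, in the cKO-labelled libraries and 2.26 ± 0.27, adjusted p = 0.000164, in WT).

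At P5 the photoreceptor genes spread widely between libraries of the same label. Their mean log2 value was 7.27, 10.09 and 9.23 in the P5 cKO-labelled libraries and 7.35, 8.40 and 10.82 in P5 WT, against 6.08 to 6.11 in the E15.5 cKO-labelled libraries and 6.09 to 6.12 in E15.5 WT. They made up 0.122%, 0.744% and 0.406% of the summed values in the P5 cKO-labelled libraries and 0.128%, 0.241% and 1.43% in P5 WT. Of the 38 genes, 13, 0 and 1 were at the floor in the P5 cKO-labelled libraries and 13, 6 and 0 in P5 WT. Replicate 1 of each label was the lowest, and WT replicate 3 and cKO-labelled replicate 2 were the highest. The median SD on the log2 scale was 1.74 in the cKO-labelled libraries (0.232 for all genes tested) and 2.07 in WT (0.317 for all genes tested). The highest P5 library exceeded the lowest at least 10-fold for 25 of the 37 genes (67.6%), against 1.72% of all genes tested.

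The order of the P5 libraries was nearly the same from gene to gene. WT replicate 3 was highest for 33 of 37 genes (89.2%), against 30.3% of all genes tested. For 30 of 37 (81.1%) WT replicate 3 was above cKO-labelled replicate 2, which was above cKO-labelled replicate 3, and all of these were above the other 3 P5 libraries, against 9.41% of all genes tested. The 7 genes outside this order were Abca4, Gngt2, Gucy2f, Pde6a, Pde6c, Prdm1 and Slc24a1. The order was read from the values of these genes, so a high share among them is partly built in. These shares describe genes measured in the same 6 libraries, which are not independent of each other. A second list of 38 photoreceptor genes in the table, not among those above, had the same highest library. WT replicate 3 was highest for 33 of its 37 tested genes, and its mean log2 value was 6.70, 9.0 and 8.22 in the P5 cKO-labelled libraries and 6.75, 7.46 and 9.63 in P5 WT. With age, 8 of these 37 genes (21.6%) rose and 1, the retinoid receptor gene Rxrg, fell in the cKO-labelled libraries (log2 fold change -1.0), and 8 (21.6%) rose and none fell in WT, shares near the 17.6% and 15% of all genes tested that were called higher. The largest differences in WT were those of Neurod1, a neuronal transcription factor (3.75), and Cdhr1, an outer segment cadherin (3.15), both called.

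Rod and cone genes were also compared library by library. On the log2 scale the 12 rod genes averaged 7.49, 10.63 and 9.65 in the P5 cKO-labelled libraries and 7.60, 8.68 and 11.10 in P5 WT, and the 7 cone genes averaged 6.24, 8.13 and 7.53 in the cKO-labelled libraries and 6.39, 7.19 and 9.25 in WT. Gene lengths differ between the classes, so the difference between them is read only from library to library. Rod minus cone was 1.25, 2.50 and 2.12 in the cKO-labelled libraries and 1.22, 1.48 and 1.85 in WT. Its mean was 1.96 ± 0.64 in the cKO-labelled libraries and 1.51 ± 0.32 in WT (SD, n = 3 each), and the labels overlapped. At E15.5 it was 0.57 ± 0.00 in the cKO-labelled libraries and 0.57 ± 0.02 in WT, where Gnb1 was the 1 rod gene clearly above the floor. With the 8 rod and 3 cone genes that were above the floor in all 6 P5 libraries, it was 1.41, 2.33 and 2.16 in the cKO-labelled libraries and 1.23, 1.45 and 1.86 in WT. In both sets of genes the library with the lowest photoreceptor values of each label also had its smallest difference, and cKO-labelled replicates 2 and 3 exceeded WT replicate 3, whose photoreceptor values were higher. In replicate 1 of each label 4 of the 12 rod and 4 of the 7 cone genes were at the floor, which can narrow the first difference. The smaller set holds Pde6c, which varied little, and Slc24a1, which took another order. The pattern therefore gives no reading of rods against cones.

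**Figure D3:**
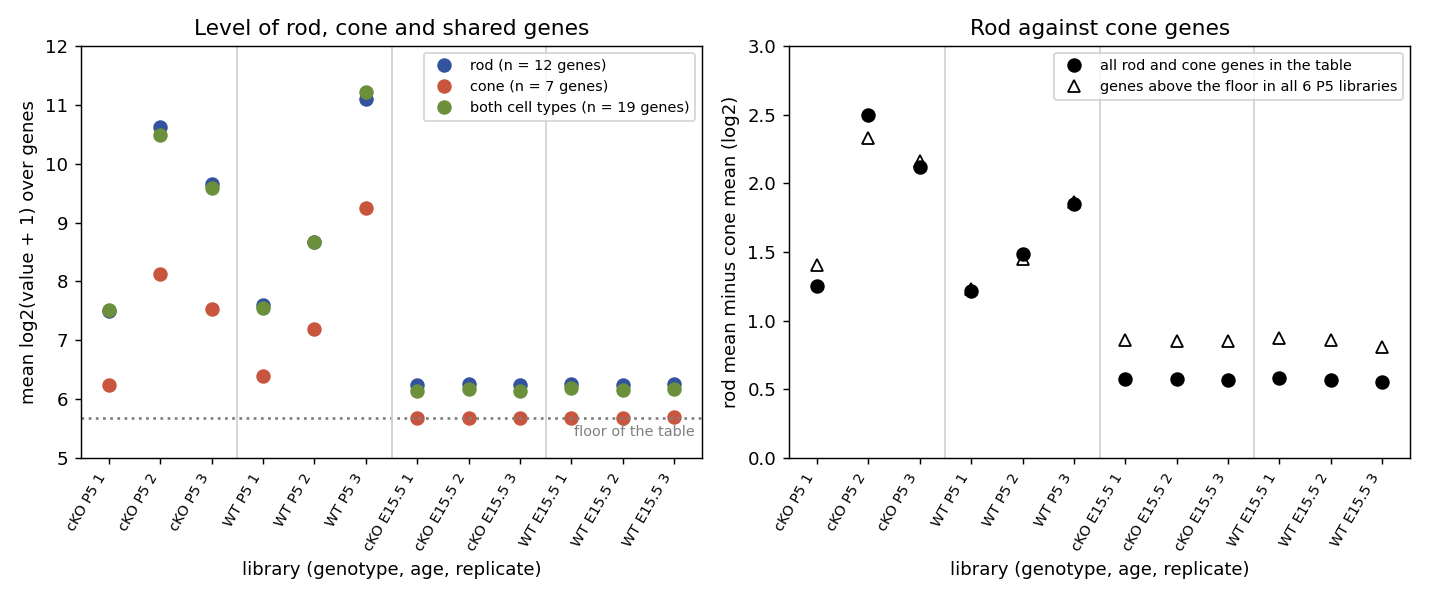
Left, mean log2(value + 1) of rod, cone and shared genes in each library, with the floor of the table as a dotted line. Right, the rod mean minus the cone mean, for all rod and cone genes in the table (filled) and for those above the floor in all 6 P5 libraries (open). The difference was between 1.22 and 2.50 at P5 and between 0.55 and 0.59 at E15.5 for all genes.

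Single libraries were then set against each other. WT replicate 3 over cKO-labelled replicate 2 had a median ratio of 2.92 for the 5 genes that control transcription (2.51 to 4.55). It was 2.39 for the cone genes (1.10 to 3.33), 1.85 for the shared genes and 1.42 for the rod genes (0.42 to 2.73). The 5 genes that control transcription are also counted among the rod or shared genes. Here WT is on top of the ratio because its library had the higher values. Rcvrn (1.01), Impg1 (1.04) and Pde6c (1.10) differed least between these libraries. Prdm1 (4.55), Gngt2 (3.33) and Crx (3.17) had the highest ratios. Abca4 (0.38), Slc24a1 (0.42), Gucy2f (0.63) and Pde6a (0.81) were lower in WT replicate 3. Within the cKO label, replicate 2 over replicate 3 had a median of 2.01 for these 5 genes, 2.09 for the rod genes and 1.495 for the cone genes. So the order of these 5 genes over rod genes was not seen there. These ratios compare single libraries and have no test.

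**Figure D4:**
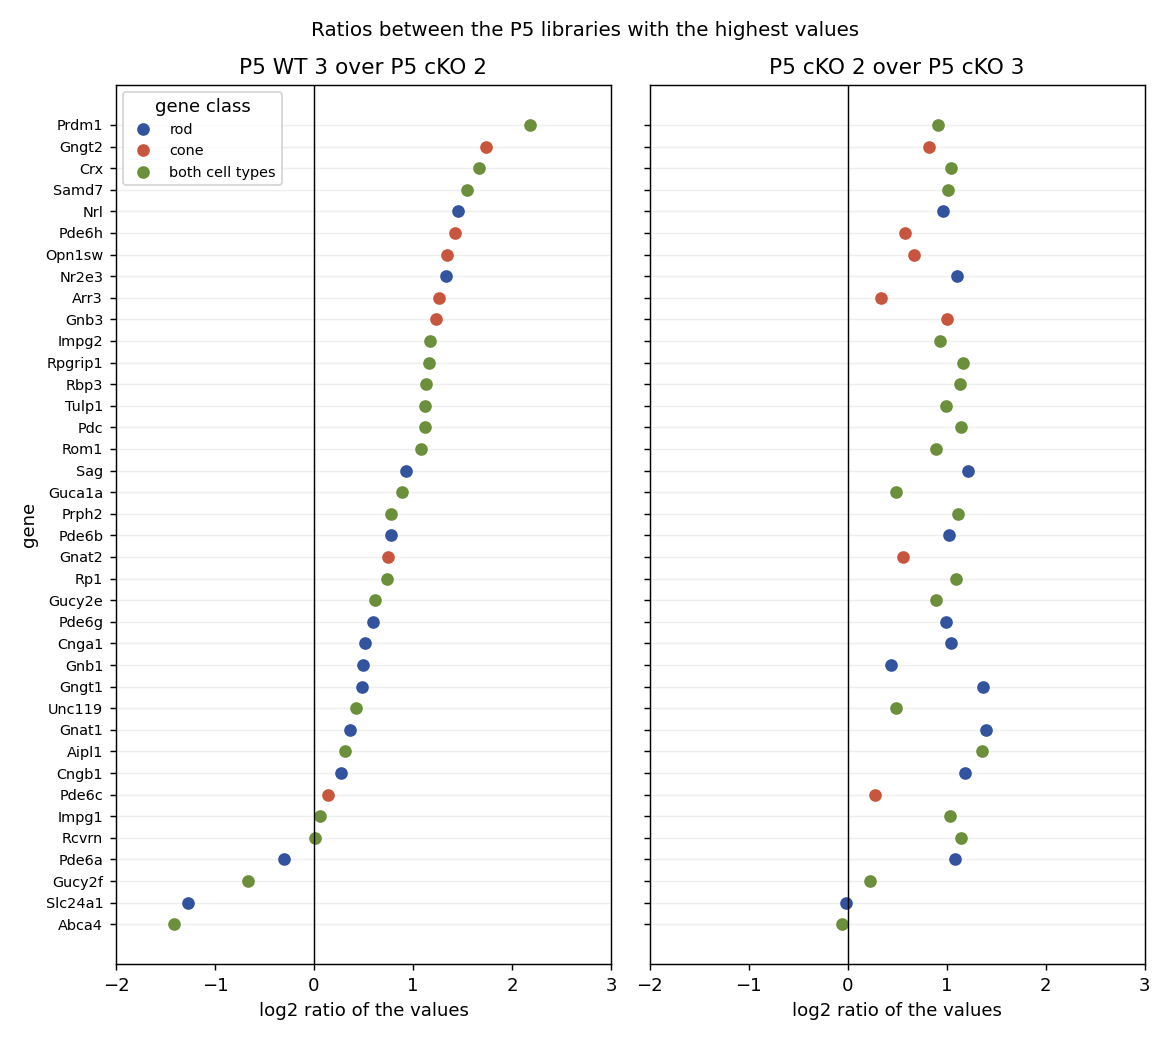
Log2 ratios of the values of single P5 libraries for the 38 photoreceptor genes, coloured by class and sorted by the left panel. Left, WT replicate 3 over cKO-labelled replicate 2, which was highest for Prdm1 and lowest for Abca4. Right, cKO-labelled replicate 2 over cKO-labelled replicate 3, where most genes lie near 1, a ratio of about 2-fold.

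Ratios between genes were computed within each P5 library, 9 in all, chosen with the values in view. Crx over Sag was 1.01, 0.651 and 0.732 in the P5 cKO-labelled libraries and 1.26, 1.09 and 1.08 in P5 WT. Nrl over Pde6b was 1.84, 1.31 and 1.37 in the cKO-labelled libraries and 2.40, 1.92 and 2.09 in WT. Gnb3 over Pde6b was 0.972, 0.71 and 0.721 in the cKO-labelled libraries and 1.5, 1.12 and 0.977 in WT. Every WT library lay above every cKO-labelled library in these 3 ratios, of which 2 share Pde6b. Over all 300 pairs of the 25 photoreceptor genes above the floor in all 6 P5 libraries, the labels did not overlap in 9.0% of the ratios, against 7.53% of all pairs of the 11527 tested genes above the floor there, so such ratios were about as frequent among photoreceptor genes as among all genes. In 5 of the 9 ratios a gene was at the floor in some P5 library, so their order is not read. Nr2e3 over Pde6g overlapped, with 3.47, 2.53 and 2.33 in the cKO-labelled libraries and 2.89, 4.27 and 4.19 in WT. No test is attached to any of them.

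Markers of other retinal cells moved with the photoreceptor genes at P5. On average, the log2 value of 7 amacrine and horizontal cell genes was 6.91, 8.58 and 7.96 in the P5 cKO-labelled libraries and 7.13, 7.48 and 9.32 in P5 WT, with 0 to 3 of the 7 at the floor. That of 10 ganglion cell genes was 6.85, 8.38 and 7.93 in the cKO-labelled libraries and 6.87, 7.29 and 8.82 in WT, and the summed values ranged from 2807 to 4475 in the cKO-labelled libraries and from 2995 to 5603 in WT. The 10 retinal progenitor genes had 6.58, 7.53 and 7.32 in the cKO-labelled libraries and 6.41, 7.16 and 8.74 in WT. The 5 bipolar cell genes had 6.35, 7.78 and 6.90 in the cKO-labelled libraries and 6.33, 6.60 and 7.80 in WT. Of these 5, 4, 0 and 2 were at the floor in the cKO-labelled libraries and 4, 2 and 2 in WT. In P5 cKO-labelled replicate 1, 6 of the 10 ganglion cell and 7 of the 10 progenitor genes were at the floor. In all 4 lists WT replicate 3 was highest, followed by cKO-labelled replicate 2 and then cKO-labelled replicate 3. For bipolar genes the top 2 libraries hardly differed (7.804 and 7.779). The 7 genes of Müller glia and astrocytes did not follow this order, with 9.62, 9.60 and 10.20 in the cKO-labelled libraries and 9.55, 10.65 and 10.42 in WT. The part of neural retinal cells in the photoreceptor values was not tested.

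Markers of RPE, lens, skeletal muscle, endothelium, and macrophages and microglia took other orders. The 15 RPE genes had 10.50, 10.72 and 11.07 in the P5 cKO-labelled libraries and 11.88, 11.96 and 10.53 in P5 WT, so WT replicate 3, with the highest photoreceptor values, had the lowest RPE value of its group. The 12 lens genes had 8.68, 8.39 and 9.24 in the cKO-labelled libraries and 7.57, 8.79 and 6.22 in WT, with 8 of the 12 at the floor in WT replicate 3. The 10 skeletal muscle genes had 12.12, 12.17 and 10.81 in the cKO-labelled libraries and 11.99, 10.53 and 9.73 in WT, and the 8 endothelial genes 11.38, 10.36 and 10.96 in the cKO-labelled libraries and 11.73, 11.55 and 10.75 in WT. The 8 macrophage and microglia genes had 9.06, 8.15 and 8.31 in the cKO-labelled libraries and 9.11, 8.88 and 7.74 in WT. All 5 of these lists were lower in WT replicate 3 than in WT replicates 1 and 2, and so were the photoreceptor genes Slc24a1, Gucy2f and Abca4. The part of these tissues in the photoreceptor values was not tested.

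**Figure D5:**
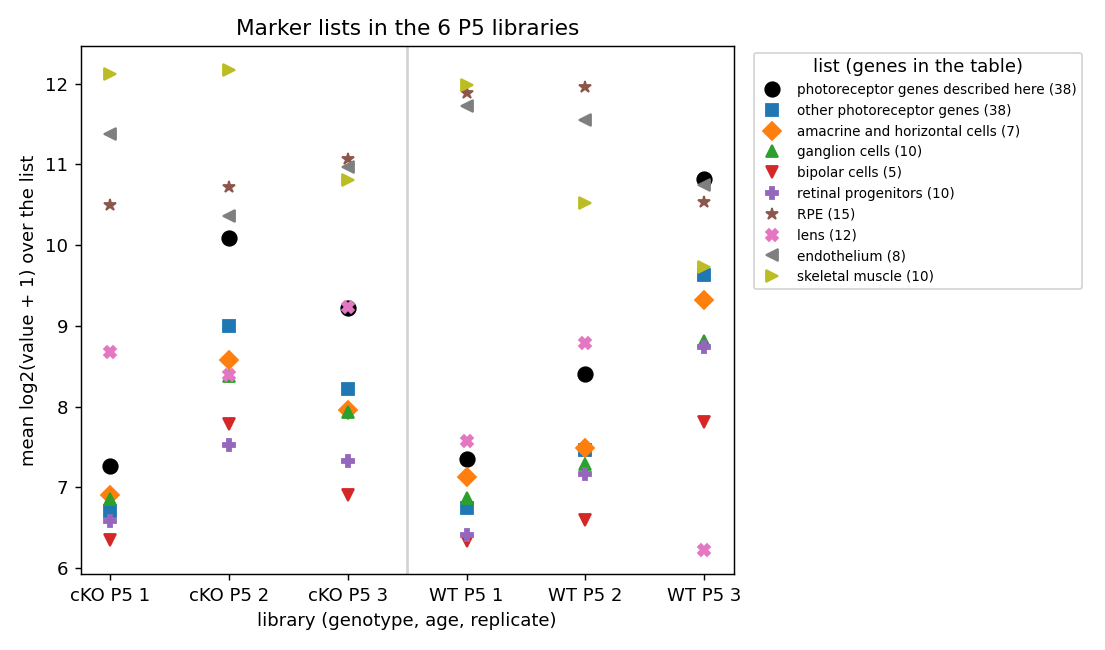
Mean log2(value + 1) of the photoreceptor genes (black) and of 9 marker lists in the 6 P5 libraries, with the number of genes in the table in brackets. Not drawn are the list of Müller glia and astrocytes, which took another order, and that of macrophages and microglia. Retinal neuron and progenitor lists take their highest values in WT replicate 3 and cKO-labelled replicate 2, where the photoreceptor mean is 10.82 and 10.09, and the RPE list is lower in WT replicate 3 than in WT replicates 1 and 2.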

How the data were processed

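RNA of 12 mouse RPE libraries (polyA RNA, mRNA libraries, per the labels' protocols) was grouped by the genotype and age labels. The submitters' processing notes name TopHat2 2.0.10, HTSeq and the mm10 build. The deposited file gives a signal per gene: counts that the authors quantile-normalised and floored at 50, as its name says. All columns held the same sorted values, with 9.87% of each at the floor and a sum of 12618429, so the depth is unknown and no counting error can be given. Values were taken as log2(value + 1), and fold changes are on that scale. A limma 3.58.1 model in R 4.3.3 (1 mean per group, eBayes with trend, two-sided, Benjamini-Hochberg over 13523 genes above the floor in at least 3 libraries, called at an adjusted p under 0.05) was fitted to all 12 libraries and was tested on simulated data. Every adjusted p in the text is from limma. Levels per kilobase use the summed exon length in GENCODE M21, which can overstate the length of the transcript in use. The sources used here do not give the strand setting or annotation of the counting, so reads of overlapping genes may be split or shared.

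The photoreceptor genes, the classes and the other lists were chosen with earlier results of these data known. Tests are printed for genes called in a contrast and for the 3 highest and 3 lowest genotype fold changes, and values describe the rest. Opn1sw, Gnb1, Impg2 and Samd7 were also given with a test where it made no call, and Rxrg was named, after their values were seen. At E15.5 only 2 fold changes were positive, so 2 are given. Of the second photoreceptor list, counts and the examples with the largest difference in WT are given. Alternatives were another pseudocount, other filters, no variance trend, library weights, a replicate block, fits on 6 libraries and each library left out in turn. 1 alternative, leaving out P5 cKO-labelled replicate 2 and P5 WT replicate 3 together, was chosen after seeing the data. Promoter sequences are from RefSeq (GRCm38.p6).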

Additional observations from a re-analysis of the deposited data

How the results depend on the processing

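The counts of photoreceptor genes called for genotype at either age, and for the interaction, were 0 under every alternative run, of 25 to 38 genes tested. In the comparison of ages the count in the cKO-labelled libraries was 22, and it was 34 with library weights and 14 to 32 with each library left out in turn, lowest without P5 cKO-labelled replicate 2 and highest without P5 cKO-labelled replicate 1. In WT the count was 23, between 16 and 30 under all alternatives, 16 to 27 with each library left out. Leaving out the highest library of each label at P5 together gave 24 in the cKO-labelled libraries and 22 in WT. With the replicate number as a block, 24 genes were called in each label. Replicate numbers do not mark a shared animal or batch in the labels, and deviations of same-numbered P5 libraries from their group means correlated at 0.783, -0.297 and 0.185, so they were not treated as pairs. Uncalled genotype fold changes that turned direction were those of Samd7 at P5 (0.21 with library weights, -1.52 to 0.68 with a library left out), Rcvrn (-0.14 to 1.85) and Gngt2 (-1.52 to 0.28) at P5, and Prdm1 (0.0531 with library weights, -0.50 to 0.0106) and Unc119 (-0.0366 to 0.0838) at E15.5; the cause was not tested. Of 827 recomputed fold changes of single genes, 82 lost their call and 9 turned direction, and 736 kept both. Of 79 recomputed medians over the photoreceptor genes 11 turned direction, all of genotype at P5 or of the interaction. The median of the interaction was 0.05, and it was -0.02 at a pseudocount of 50, -0.04 with the floor exceeded in at least 6 libraries, 0.81 with library weights and -0.83 to 1.14 with each library left out. The genotype median at P5 was 0.45 with the highest library of each label left out. The floor of 50 hides lower values, so the E15.5 level of most genes is an upper limit.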
